A study of Mus musculus with 2 samples.

Results

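Mir221 and Mir222 are the microRNA genes described here, 2 of the 2202 microRNA genes counted in each library. They were chosen by name, as the rows whose identifiers are annotated in GENCODE M21 as Mir221 (ENSMUSG00000065422.1) and Mir222 (ENSMUSG00000065471.1), a rule that uses no measured value. MicroRNA-seq had been performed on total RNA of gastrocnemius, the large calf muscle, from B6CASTF1/J males aged 36 days, with no treatment named in the labels. B6CASTF1/J is the F1 cross of C57BL/6J with the CAST strain. By the naming rule that puts the dam first, the single X chromosome of such a male comes from C57BL/6J, the strain of the mm10 reference. The 2 libraries, replicates 1 and 2, form 1 group and are described as coming from different males, so their spread holds animal and library together.

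A microRNA is cut from a hairpin precursor and guides silencing complexes to messenger RNAs that match its seed, the bases near its 5′ end. miR-221 and miR-222 are best known for repressing p27, the cyclin-dependent kinase inhibitor encoded by Cdkn1b, and so for favouring entry into the cell cycle. In muscle cell culture they are abundant in dividing myoblasts and decline as these form myotubes, and they are also studied in endothelium and vascular smooth muscle.

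The sequences show the seed that the pair has in common. Mature sequences are RefSeq's for GRCm38.p6, the assembly also called mm10, written 5′ to 3′ with the seed (bases 2 to 8) in capitals. The third line is the only other entry among 1738 mature mouse microRNAs in that table with the same seed, and the fourth is the opposite arm of Mir221.
miR-221-3p: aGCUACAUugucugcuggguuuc
miR-222-3p: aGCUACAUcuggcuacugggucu
miR-1928: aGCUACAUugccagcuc
miR-221-5p: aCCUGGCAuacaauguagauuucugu

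miR-221-3p and miR-222-3p are identical over their leading 8 bases and at 11 of 23 positions counted from the 5′ end without gaps. Both also hold cugggu nearer the 3′ end, out of step in position, so this count understates their likeness. Mir1928, the gene of the other seed match, had 0 counts in both libraries. The limit put on 0 counts was approximate, at 3 counts. It equals 0.726 CPM (replicate 1) and 0.932 CPM (replicate 2) of reads aligned to 1 locus. CPM is a gene's count per 1000000 reads counted in microRNA genes of the library. These limits, like every interval here, cover counting error only. miR-221-5p has another seed, but the tables count whole genes, so reads of the arms of a hairpin cannot be told apart.

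Both hairpins lie on the minus strand of the X chromosome, Mir221 at chrX:19146294-19146388 and Mir222 at chrX:19146893-19146971, with 504 bases between them. No other gene is annotated over either of them, and each is annotated as a gene of its own. Whether they come from a common primary transcript was not tested. The closest annotated gene is the noncoding transcript Gm14636 on the same strand, 10010 bases away on the Mir222 side, which is upstream. The hairpins are printed because their arms decide which reads can be assigned, with the shared seed in capitals.
Mir221: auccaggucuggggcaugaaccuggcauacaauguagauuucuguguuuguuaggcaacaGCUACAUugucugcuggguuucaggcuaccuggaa
Mir222: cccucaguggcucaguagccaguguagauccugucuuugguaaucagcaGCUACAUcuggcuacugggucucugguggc

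The Mir221 hairpin has 95 bases, of which 47.4% are G or C, and RNAfold gave it a minimum free energy of -42.8 kcal/mol with 38 base pairs. The Mir222 hairpin has 79 bases, 54.4% G or C, and -40.7 kcal/mol with 28 base pairs. The longest stretch the hairpins share with each other is 9 bases. Against the other annotated hairpins, on either strand, Mir221 shares at most 13 bases in a row (with Mir7213) and Mir222 at most 12 (with Mir1251). No hairpin thus shares a stretch of 20 bases with either gene, while the rest of the genome was not searched. This bears on the counts because reads aligned to several loci made up 70.4% of replicate 1 and 73.3% of replicate 2, and by the layout of the tables they were credited to no gene.

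Among the 261 microRNA genes averaging 10 CPM or more in this muscle, Mir221 was of middle abundance and Mir222 one of the scarcer. Replicate 1 gave 1354 reads of Mir221 and replicate 2 gave 1209, which is 327 and 375 CPM. Mir222 had 163 and 125 counts, or 39.4 and 38.8 CPM. The lower Mir221 value was thus well above the higher Mir222 value, and the genes did not overlap in either library. The libraries held 4134880 and 3219740 reads counted on the strand of a microRNA gene.

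As means, Mir221 stood at 351 ± 34.0 CPM (SD, n = 2) and Mir222 at 39.1 ± 0.423 CPM. Exact Clopper-Pearson 95% intervals for Mir221 ran from 310 to 345 CPM in replicate 1 and from 355 to 397 CPM in replicate 2, and did not overlap. Those of Mir222, 33.6 to 46.0 and 32.3 to 46.3 CPM, covered each other almost wholly. Together the pair held 0.0391% ± 0.00335 of counted reads. Neither gene had a read on the opposite strand, and its count was the same in the column that ignores strand.

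**Figure D1:**
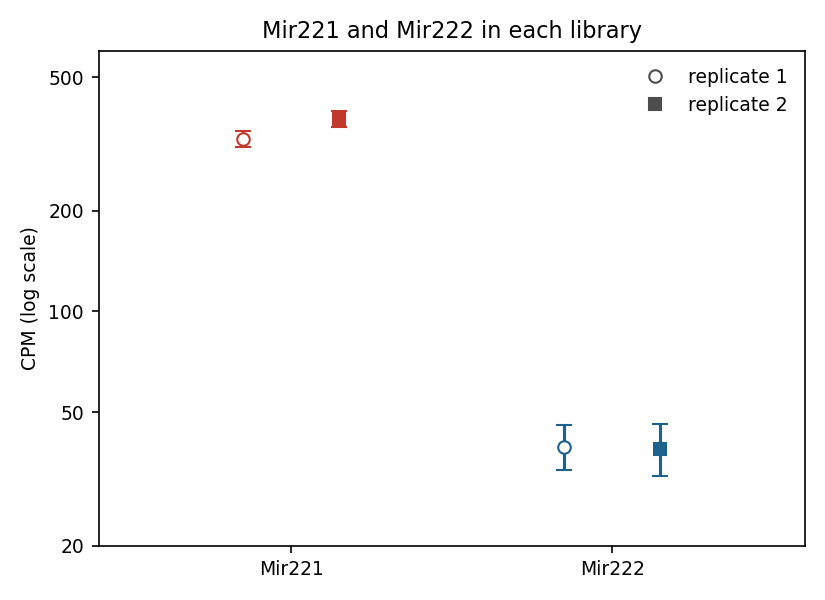
CPM of Mir221 and Mir222 (log axis) in replicate 1 (open circles) and replicate 2 (filled squares), with exact 95% counting intervals as bars. Mir221 sits at 327 and 375 CPM, far above Mir222 at 39.4 and 38.8 CPM.

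Ranked by mean CPM, Mir221 was in place 104 and Mir222 in place 212 of all genes, of which 639 had a count. In single libraries Mir221 held place 109 in replicate 1 and 97 in replicate 2, and Mir222 places 216 and 201. Among the 261 genes averaging 10 CPM or more, 39.5% were more abundant than Mir221 and 80.8% more abundant than Mir222. The median of those 261 genes, 199.95 CPM, fell between the members.

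**Figure D2:**
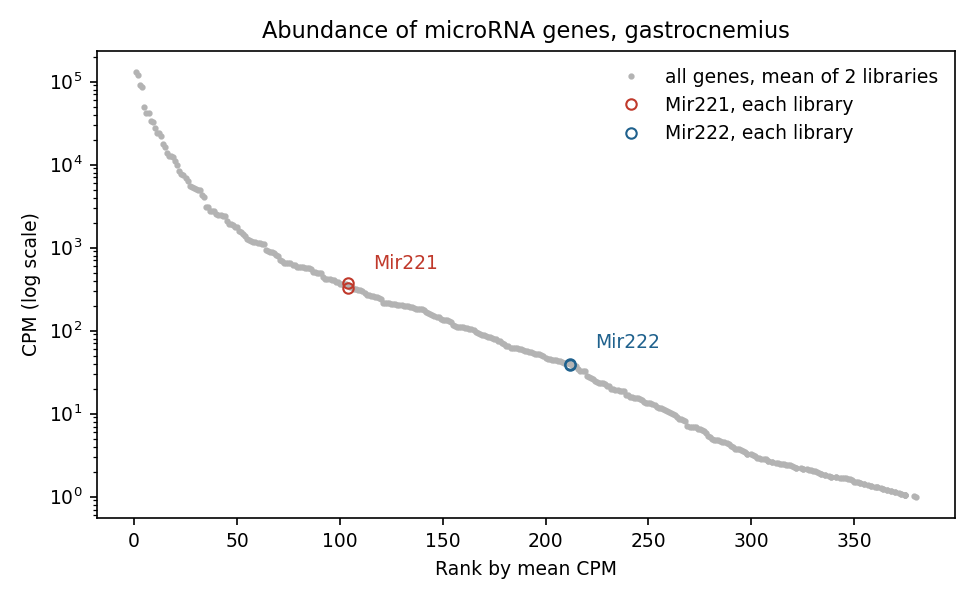
Mean CPM (log axis) against rank for genes averaging 1 CPM or more (grey), with each library's value for Mir221 (red) and Mir222 (blue). Mir221 lies at rank 104 and Mir222 at rank 212, on the long slope below the leading genes.

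The genes beside them in this order differed from them by less than the larger SD of the genes compared, though by more than the SD of Mir222 itself in its case and of Mir92-1 in that of Mir221. Mir148a stood directly above Mir221 at 362 ± 114 CPM, and Mir92-1, of the Mir17hg cluster, directly below it at 334 ± 13.7 CPM. Mir345 stood above Mir222 at 40.6 ± 2.08 CPM, and Mir224, another X-linked gene, below it at 38.2 ± 5.77 CPM.

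Likeness over both libraries was measured as the Euclidean distance of log2(CPM + 1), where 0 means equal levels in both. With only 2 libraries it reflects level more than pattern. The 3 genes closest to Mir221 were Mir1a-2, a locus of the muscle microRNA miR-1, at a distance of 0.13, Mir92-1 at 0.22 and Mir107 at 0.28. Mir1a-2 had 315 and 347 CPM, so like Mir221 it was the higher in replicate 2, but reads of miR-1 can align to more than 1 locus, so its count is uncertain. The 3 closest to Mir222 were Mir345 (0.09), Mir669o (0.16) and Mir412 (0.17).

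The next question was how unequal the neighbours are. Mir221 exceeded Mir222 8.28-fold in replicate 1 and 9.64-fold in replicate 2. As log2 ratios of counts + 0.5 these were 3.05 and 3.27, a mean of 3.16 ± 0.15 (SD, n = 2). Mir221 was the higher gene in each library. With 2 libraries the smallest two-sided p of an exact sign-flip test is 0.5. That test therefore cannot pass a threshold here, and no other was run on the inequality of the members.

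Mir221 took 89.3% of the pair's 1517 reads in replicate 1, with a 95% interval by the exact Clopper-Pearson method of 87.6 to 90.8%. In replicate 2 it took 90.6% of 1334 reads, with an interval of 88.9 to 92.1%. The split did not differ detectably between the libraries by Fisher's exact test on the reads (two-sided p = 0.237), which compares these 2 libraries and not animals in general. The counts were not divided by gene length, since a mature microRNA is read whole. Divided by the annotated lengths of 95 and 79 bases, the mean log2 ratio was 2.89.

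An imbalance of this size in the counts was not unusual among neighbours. Adjacent microRNA genes on 1 strand with starts within 10 kb and both at 10 CPM or more formed 76 other pairs on 18 chromosomes, of which 34 were on chromosome 12 and 11 on X. In a cluster, 1 gene can belong to 2 such pairs. The higher gene exceeded the lower by a median of 2.28 on the log2 scale, or 4.84-fold, with a range of 0.05 to 10.99. In 26 of the 76 pairs (34.2%) the ratio was larger than that of Mir221 over Mir222. Some lower genes in these 26 pairs carry a copy number in their symbol and can miss reads that align to several loci. The ratios of such pairs are therefore not a measure of the mature microRNAs.

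The pairs with the nearest ratios were Mir181b-2 over Mir181a-2 (8.60-fold), Mir191 over Mir425 (8.55-fold) and Mir450b over Mir450-1 (8.08-fold). Loci with a copy number in their symbol can miss reads that align to several loci. The last of these pairs is on the X chromosome, in the group of microRNAs that includes Mir322 and Mir503.

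**Figure D3:**
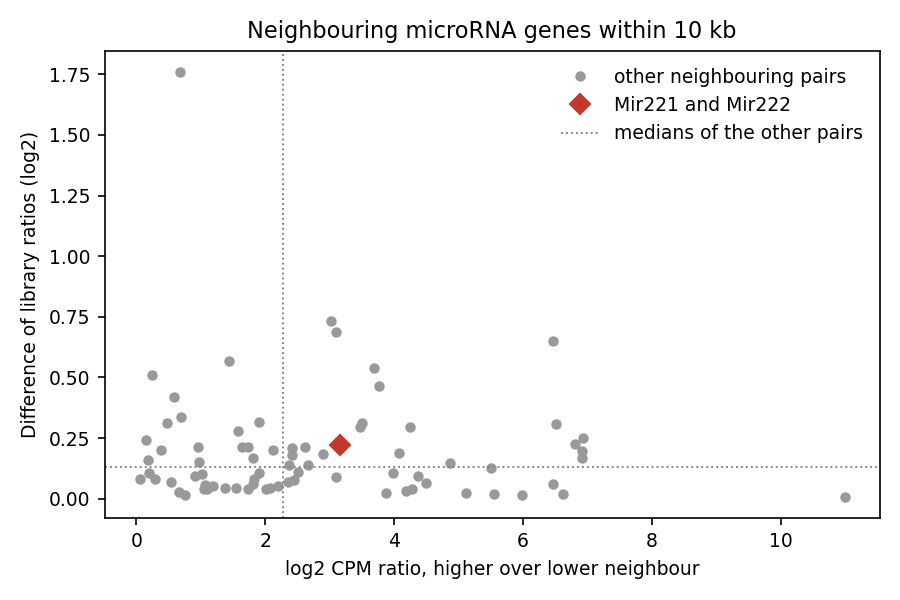
Each point is a pair of neighbouring microRNA genes, with the log2 CPM ratio of the higher over the lower gene on the x axis and the absolute difference of their replicate 2 over replicate 1 log2 ratios on the y axis. Mir221 with Mir222 (red) lies at 3.16 and 0.22, to the right of and above the medians of the other pairs, 2.28 and 0.13 (dotted lines).

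Between the animals, Mir221 was somewhat higher in replicate 2 and Mir222 nearly level. Ratios are log2 of replicate 2 over replicate 1 of CPM + 1 after TMM scaling, which assumes that most genes do not differ and trims the extremes. Mir221 had a ratio of 0.36, or 1.29-fold, with an exact counting interval of 0.25 to 0.48. Mir222 had 0.14, or 1.10-fold, with an interval of -0.20 to 0.49 that holds 0. These rest on 1 library a side and have no replicate check.

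Neither member passed 2-fold in either direction. Of the 261 genes, 14 did (5.36%), 13 as lower in replicate 2 (4.98%) and 1 as higher (0.383%). Both members were above 0, as were 44.1% of the genes tested. Under total-count scaling 1 of 2 members was above 0, with Mir221 at 0.20 and Mir222 at -0.021, against 20.3% of genes. With DESeq2 size factors both were, at 0.42 and 0.19, against 51.0%.

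The scaling moved all genes together, so the members can be read against the median gene. That median was -0.05 with TMM, -0.21 with total counts and 0.0026 with DESeq2 size factors. Relative to it, Mir221 was higher by 0.41 and Mir222 by 0.19 under each of the 3 scalings.

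Of the 261 genes, 7.66% had a higher ratio than Mir221 and 23.4% a higher ratio than Mir222. By absolute size, 24.9% exceeded Mir221 and 59.0% Mir222. Among the 69 other genes within 2-fold of Mir221 in mean CPM, 5 had a higher ratio, with a median of -0.07 and a range of -0.49 to 0.55. Among the 56 such genes around Mir222, 11 were higher, with a median of -0.12 and a range of -3.08 to 0.80.

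**Figure D4:**
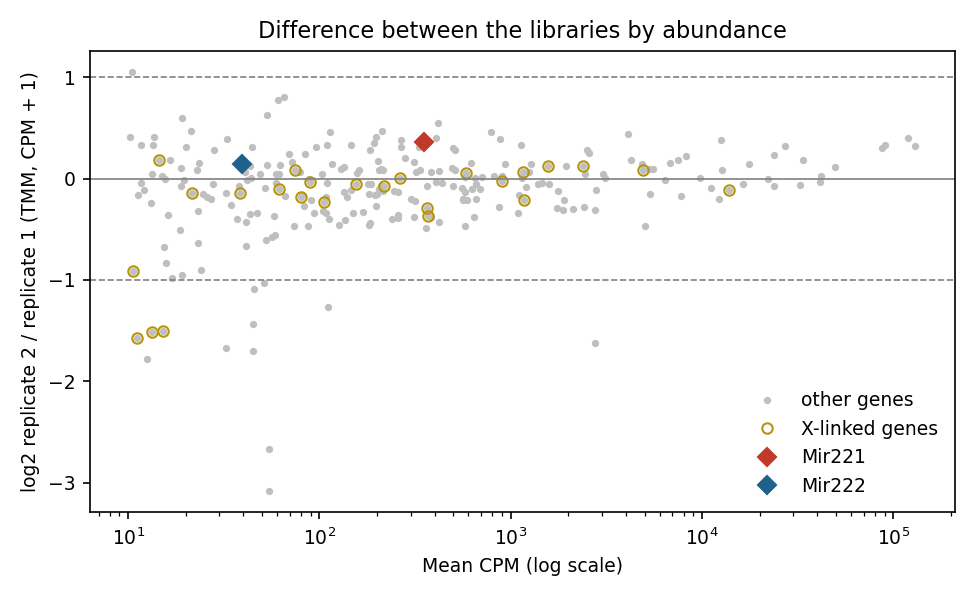
Log2 ratio of replicate 2 over replicate 1 (TMM, CPM + 1) against mean CPM (log axis) for the 261 genes with at least 10 CPM, with X-linked genes ringed and 2-fold marked by dashed lines. Mir221 (red, 0.36) and Mir222 (blue, 0.14) lie above 0 and inside the dashed lines.

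The ratios of the members differed by 0.22, against a median difference of 0.13 in the 76 other pairs of neighbours. In 20 of these (26.3%) the difference was larger.

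MicroRNAs of the cell cycle and of myoblast differentiation were then set beside the pair, from lists of textbook members. The proliferation clusters within Mir17hg and Mcm7, which like miR-221 and miR-222 are linked to cell cycle entry, had 7 of 9 members at 10 CPM or more. Of the 9, 4 were more abundant than Mir221, namely Mir17 at 1394 ± 153 CPM, Mir93 at 1275 ± 17.0, Mir20a at 931 ± 9.48 and Mir106b at 864 ± 187. Far below Mir222 were Mir19b-1 at 0.518 ± 0.293 CPM and Mir19a at 0.397 ± 0.122. All 7 members at 10 CPM or more were more abundant than Mir222, the lowest of them being Mir25 at 209.6 ± 24.5 CPM. Their ratios between the libraries had a median of -0.06, from -0.28 to 0.15, with 3 of 7 above 0, or 0 of 7 under total-count scaling. The shares of all genes tested were 44.1% and 20.3%. None reached the ratio of Mir221.

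MicroRNAs that rise as myoblasts differentiate had 18 of 19 members at 10 CPM or more, led by Mir206, the skeletal muscle microRNA, at 27262 ± 2019 CPM. Mir322, an X-linked microRNA that restrains the cell cycle activator Cdc25a, followed at 13771 ± 1905 CPM, then Mir27b at 9804 ± 784 and Mir29a at 2548 ± 112. Of the 19, 8 were above Mir221 and 12 above Mir222. The loci of miR-1, miR-133a, miR-26a, miR-29b and miR-181a carry a copy number in their symbol and can miss reads that align to several loci. Their places below the pair are therefore not a measure of the mature microRNA. The same holds for such loci in the other lists. The median ratio between the libraries was 0.04, with 10 of 18 above 0, or -0.13 with 8 above 0 under total-count scaling. Beside these, 44.1% and 20.3% of all genes tested were above 0. The ratio was larger than that of Mir221 for 3 of them, and it reached 0.77 in Mir181a-2.

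The microRNAs known as brakes on the cell cycle, the miR-15 and miR-16 family and miR-34, had 8 of 9 members at 10 CPM or more. Their highest were Mir195a at 6374 ± 566 CPM, Mir15a at 1765 ± 252, Mir497 at 1587 ± 173 and Mir16-1 at 896 ± 61.4. Of these 9 genes, 6 stood above Mir221 and 8 above Mir222. Their ratios ran from -0.47 to 0.10, with 3 of 8 above 0, or 0 under total-count scaling and 5 with DESeq2 size factors. The shares of all genes tested were 44.1%, 20.3% and 51.0%.

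The satellite cell microRNAs, of the stem cells from which myoblasts arise, were low. Mir31 had 266 and 85 counts, or 45.4 ± 26.8 CPM, close to Mir222 in mean level but lower in replicate 2 by a log2 ratio of -1.09. Mir489, tied to quiescence of these cells, had 9 and 5 counts, or 1.86 ± 0.441 CPM.

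**Figure D5:**
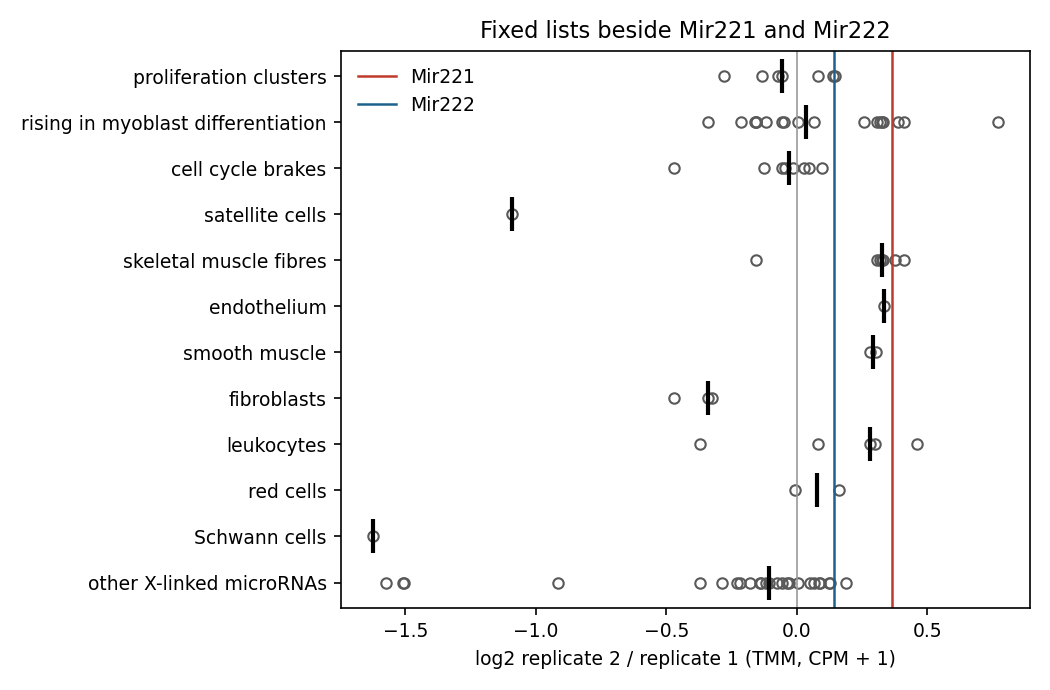
Log2 ratio of replicate 2 over replicate 1 for list members with at least 10 CPM (open circles) and each list's median (black bars), with Mir221 (red line, 0.36) and Mir222 (blue line, 0.14). The bottom list is the X-linked genes other than the pair, whose circles all lie left of the red line.

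Because miR-221 and miR-222 are known from several cell types of a muscle, markers of these were read in the same libraries. All 8 fibre markers had counts and 7 reached 10 CPM, with summed levels of 26554 CPM in replicate 1 and 29492 CPM in replicate 2. The median ratio of these 7 was 0.33, with 6 above 0, from -0.16 for Mir133a-1 to 0.41 for Mir1a-1. Of all genes tested, 44.1% were above 0. Endothelial Mir126a went from 85413 to 95833 CPM (0.33). The smooth muscle markers Mir143 and Mir145a together went from 85297 to 93638 CPM, with ratios of 0.30 and 0.28. The 5 leukocyte markers summed to 2326 and 2425 CPM, with a median ratio of 0.28 and a range of -0.37 for Mir223 to 0.46 for Mir155. The medians of fibre, smooth muscle and leukocyte markers and the single endothelial marker were thus above 0, as was Mir221 at 0.36. So was the red cell median, at 0.079.

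The remaining lists had lower medians. The 4 fibroblast markers summed to 1403 and 981 CPM, and the 3 tested had ratios of -0.47 to -0.32. The red cell markers Mir451a and Mir144 summed to 405 and 394 CPM, with ratios of 0.16 and -0.0059, and the 3 Schwann cell markers to 4297 and 1244 CPM, with Mir338 at -1.63. Fibroblast Mir199a-1, with 1 and 0 counts, was the single marker at 0 in a library. The part of any cell type in the counts of the pair was not tested, and fewer cells of a type cannot be told apart from less RNA per cell.

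The X chromosome carries 140 other annotated microRNA genes, of which 46 had a count and 25 reached 10 CPM. Mir221 was exceeded by 10 of them and Mir222 by 18. The highest were Mir322 at 13771 ± 1905 CPM, Mirlet7f-2 at 4909 ± 191, Mir98 at 2383 ± 47.5, Mir361 at 1557 ± 32.0 and Mir652 at 1179 ± 220.0. Of the 25, 8 had a ratio above 0, or 1 under total-count scaling and 10 with DESeq2 size factors, and the median was -0.11. Among all genes tested the shares above 0 were 44.1%, 20.3% and 51.0%.

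Finally, the shared seed was searched in 3′ untranslated regions of genes reported as targets of miR-221 or miR-222, whose own RNA was not measured here. The motif was ATGTAGC, complementary to bases 2 to 8, on the transcript strand, in the longest 3′ untranslated region per gene in GENCODE M21. Of 9 such genes 6 held it, at 8 places, and 1978 of all 20983 genes with such a region did (9.43%). Among genes with a region within 10% of a target's length, the share ran from 4.99% for Cdkn1c to 31.6% for Foxo3. A seed match may be part of why a gene was reported as a target, so the count is a description and not a test. These are letters in a reference, not measured binding. The sites of cell cycle inhibitors, the receptor Kit and the death promoter Bbc3 (Puma) are printed with the motif in capitals, in the direction of the transcript.
Cdkn1b: ctctaaaagcattggATGTAGCa
Cdkn1c: tgggacctttcgttcATGTAGCa
Kit upstream site: aatgatgggagatatATGTAGCa
Kit downstream site: tttgtaaatattgaaATGTAGCa
Bbc3: gactttttctgcaccATGTAGCa

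The Cdkn1b site, at chr6:134924416-134924438 on the plus strand, was the single full match in 3439 bases, and 23.3% of 974 genes with a region within 10% of that length held the motif. Cdkn1c, which encodes the related inhibitor p57, held it at chr7:143458925-143458947 on the minus strand, in 688 bases, against 4.99% of 1083 genes of like length. Kit, a receptor tyrosine kinase, held it at chr5:75654977-75654999 and chr5:75656508-75656530, both on the plus strand, in 2177 bases, against 15.04% of 1336 genes. Bbc3 held it at chr7:16317316-16317338 on the plus strand, in 971 bases, against 5.06% of 1344 genes. Each of these 5 sites is followed by A, the base that lies opposite position 1 of the microRNA. Of all 8 sites in the targets 6 are, the exceptions being the Timp3 site and the downstream Ets1 site.

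Timp3, an inhibitor of metalloproteinases, held 1 site and Ets1, a transcription factor of endothelium, held 2. Foxo3, Pik3r1 and Icam1 held none in the whole region searched. The 6-base motif TGTAGC was present in all 9 genes and in 28.0% of all genes, but in 17.5% to 72.7% of genes with a region of like length.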

How the data were processed

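The authors deposited raw read counts per microRNA gene, 1 table per library, for assembly mm10 and annotation GENCODE M21, per the labels and the descriptions that accompany the tables. No source used here gives the aligner, the counter or the trimming. Of the 3 count columns, the one for reads on the gene's strand was used. The 4 rows that name no gene were left out of library sizes. The genes counted took 20.96% of the reads of replicate 1 and 19.2% of those of replicate 2.

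CPM, shares with exact Clopper-Pearson intervals and log2 ratios were computed in Python 3.11.15 with scipy 1.17.1. TMM factors (1.06 and 0.944) came from edgeR 4.0.16 and alternative size factors from DESeq2 1.42.0. The ratio calculation was tested on simulated data. Genes averaging 10 CPM or more entered comparisons between libraries, with a pseudocount of 1 CPM. Hairpins were folded with RNAfold 2.7.2. With 1 group of 2 libraries, no test between conditions was possible.

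Named genes were the pair, the 3 nearest to each by distance, those directly above and below, the 4 highest of each list, the 5 highest on X and the 3 neighbouring pairs of nearest ratio. Mir25, Mir181a-2, Mir1a-1 and Mir133a-1 were named after their values were seen, where they end a range. The rule for the members uses no measured value, but they and the lists were proposed with earlier results of these data known. Motif matches were sought in reference transcripts alone, and 1 gene of the target list is not reported here.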

Additional observations from a re-analysis of the deposited data

How the results depend on the processing

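Of 71 alternative values for 16 results, 48 kept their direction and lay within the counting or replicate spread, or within 1.5 times for counts. Some of the 48 were fixed in advance. With 2 libraries, the value of a single library always lies within the SD of their mean. The ratio of Mir221 over Mir222 cannot change in the column that ignores strand, since neither gene had opposite-strand reads. The place of Mir221 among X-linked genes, given below, could hardly change under another scaling, which moves all ratios almost alike. Mean abundance of Mir221 and Mir222 was 468 and 52.1 CPM in the column that ignores strand, 70.4 and 7.86 CPM of all reads, 404 and 44.99 without the most abundant gene in the library size, and 3.70 and 0.495 CPM per annotated base. Each follows from its denominator. The log2 ratio of Mir221 over Mir222 was 2.89 per annotated base and 3.05 to 3.27 in single libraries, where abundance was 327 to 375 CPM and 38.8 to 39.4 CPM. The ratio of replicate 2 over replicate 1 for Mir221 was 0.20 under total counts, 0.070 per all reads and 0.22 without the most abundant gene. For Mir222 it reversed to -0.021 under total counts and -0.13 per all reads. Genes past 2-fold numbered 14 of 261 by the main setting and 7 of 261 with a pseudocount of 10 CPM. They numbered 41 of 639 with no minimum above 0 and 2 of 165 at 100 CPM. Neighbouring pairs numbered 48 within 1 kb and 43 at 100 CPM. At 100 CPM, list members numbered 11 for differentiation, 0 for satellite cells and 14 for X, and satellite cells had 2 at 1 CPM. The 6-base motif was in 9 targets against 6 for the 7-base motif. The ratio between libraries has no value with either library left out. No paired analysis was possible because the 2 libraries form 1 group. Mir222, at 163 and 125 counts, has wider counting intervals than Mir221, which limits its ratio between the animals.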

Other observations

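Among the 27 X-linked microRNA genes averaging 10 CPM or more, Mir221 had the highest log2 ratio of replicate 2 over replicate 1, which was noticed after the values were seen. Its place was 1 under TMM, total counts, DESeq2 size factors and each of the other scalings, pseudocounts and the column that ignores strand. A change of scaling moves all these ratios almost alike, so the scalings could hardly alter this place. Behind its 0.36 the next was 0.19 for Mir92-2, whose copy number in the symbol marks reads that can align to several loci, and then 0.14 for Mir222. The lowest X-linked ratio was -1.57, in Mir363. With 1 library a side this describes these 2 libraries only.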
